A study of Mus musculus with 6 samples.

Results

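Filaggrin (Flg), filaggrin 2 (Flg2), hornerin (Hrnr), repetin (Rptn), cornulin (Crnn), trichohyalin (Tchh), trichohyalin-like 1 (Tchhl1), loricrin (Lor) and involucrin (Ivl) are 9 structural genes of the mouse epidermal differentiation complex outside its Lce, Sprr and S100 families. They were chosen by symbol, and 8 of the 9 were matched to a row among the 23361 genes of the table. The level of Flg was not analysed here, and its position, transcript and promoter are described from the annotation. RNA was sequenced from CV/Fol taste cells, those of the circumvallate and foliate papillae, of C57BL/6 mice, whose lingual epithelium was peeled off after collagenase and dispase had been injected beneath it, and the cells were then sucked from the epithelium into a capillary pipette. The groups were 2 month taste cells, in 3 pools of cells from 4 mice each, and 6 month taste cells, in 3 pools of cells from 3 mice each. The labels name no treatment and no engineered allele for either group. The labels give 2 and 6 months, whereas the design text of the series names 3 months in place of 2 in one sentence. Each gene has 1 FPKM value per age (a level of sequenced fragments per transcript length and per sequencing depth), which is the authors' value over the pools of that age. The spread between pools cannot be computed from these values, no test between the ages was made here, and the sequencing depth is unknown.

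The epidermal differentiation complex is a cluster of genes that are switched on late in the life of a keratinocyte. Their products are crosslinked by transglutaminases into the cornified envelope, the protein shell beneath the plasma membrane of the dead cells at the surface of skin and of the keratinized oral epithelium. Filaggrin, filaggrin 2, hornerin, repetin, cornulin, trichohyalin and trichohyalin-like 1 form the S100 fused-type family, in which a calcium-binding S100 head is joined to a long region that in most of them is repetitive. Loricrin and involucrin have no S100 head. Taste buds are made of elongated, non-keratinized cells, but the epithelium between and around the papillae of the tongue keratinizes.

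Genes whose FPKM averaged 1 or more over both ages are called expressed here. Of the 8 genes measured, 6 were expressed, and all 6 had a lower value in 6 month than in 2 month taste cells, as did 53.7% of the 12652 expressed genes of the table. Once both ages were scaled to the same sum without short non-coding genes, called same-sum scaling here, all 6 were still lower, against 29.2% of expressed genes. The log2 change is the log2(FPKM + 1) of the 6 month cells less that of the 2 month cells, a scale that understates the change of low genes. On this scale 3 of the 6 genes (Crnn, Tchh and Hrnr) were at least 2-fold lower at 6 months and 0 were at least 2-fold higher. Of all 12652 expressed genes, 1.04% were at least 2-fold lower and 0.561% at least 2-fold higher. Many of the genes past 2-fold encode microRNAs and other short non-coding RNAs, and some were listed at 0 in 1 age. Without both kinds, 0.547% of 12423 genes were at least 2-fold lower and 0.0805% at least 2-fold higher. The median log2 change was -1.07 over the 6 genes and -0.01 over all 12652. The 8 genes summed to 1690.8 FPKM in 2 month and 918.4 FPKM in 6 month taste cells, a ratio of 1.84. In pooled RNA of this kind, fewer cells of a type and less RNA per cell cannot be told apart.

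**Figure D1:**
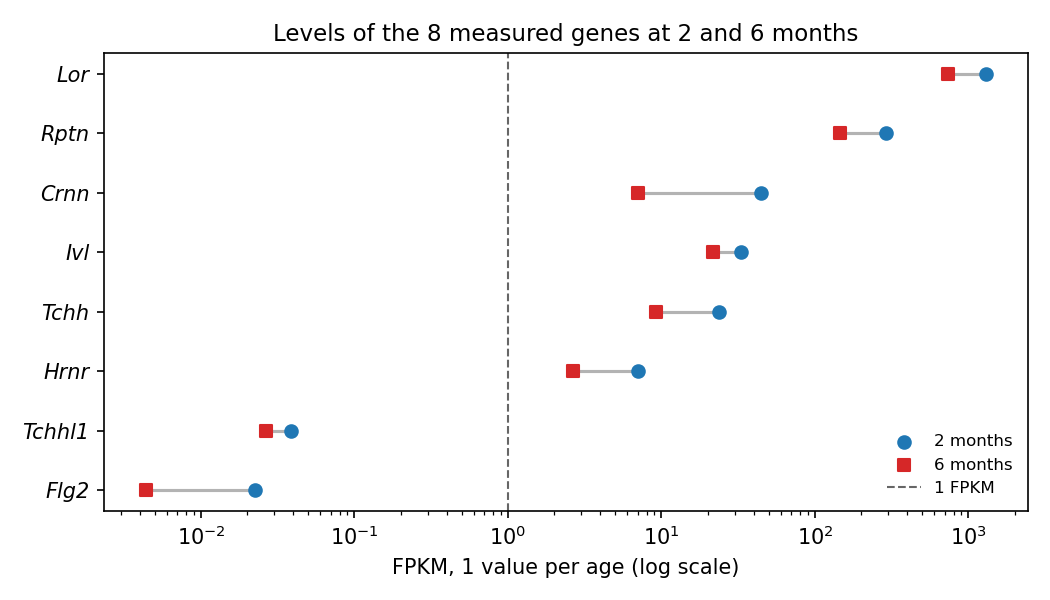
FPKM of the 8 genes in 2 month (circles) and 6 month (squares) taste cells on a log axis, with 1 value per age, no error bars and a dashed line at 1 FPKM. All 8 genes have the lower value at 6 months, the grey line between the ages is longest for Crnn among the 6 genes above 1 FPKM, and Flg2 and Tchhl1 lie far below 1 FPKM, where the length of the line is not read.

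Crnn, which encodes cornulin, a protein of the upper layers of oral and oesophageal squamous epithelium, had the widest gap between the ages among the 6 expressed genes. It was at 44.3 FPKM in 2 month and 7.05 FPKM in 6 month taste cells, so that the 2 month value was 6.28 times the 6 month value. The log2 change of Crnn was -2.49, and 61 of the 12652 genes had a lower one. At 2 months Crnn stood above Ivl and Tchh in level, and at 6 months below both.

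Tchh encodes trichohyalin, which binds keratin filaments together in the inner root sheath of the hair follicle and in the filiform papillae of the tongue. Its value was 23.7 FPKM in 2 month and 9.17 FPKM in 6 month taste cells, and its log2 change -1.28. Hrnr, which encodes hornerin, a histidine-rich relative of filaggrin, was at 6.98 FPKM and 2.64 FPKM, with a log2 change of -1.13. The 2 month value was 2.58 times the 6 month value for Tchh and 2.64 times for Hrnr, at levels that differed several-fold between the genes.

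Rptn encodes repetin, a glutamine-rich protein known from the tongue and forestomach. Of the S100 fused-type genes measured it had by far the highest level, with 291.2 FPKM in 2 month and 145.1 FPKM in 6 month taste cells. The 2 month value was 2.01 times the 6 month value, and the log2 change was -0.9999, just short of the 2-fold limit on the log2(FPKM + 1) scale. With a pseudocount of 0.1 in place of 1, Rptn passed that limit and the number of genes at least 2-fold lower was 4. Among the members, Rptn was the nearest to the limit of those that fell short of it, and Hrnr the nearest of those that passed it.

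Lor and Ivl, the envelope precursors without an S100 head, differed less between the ages. Lor encodes loricrin, the glycine-rich protein that makes up most of the cornified envelope of the epidermis. It was at 1291.8 FPKM in 2 month and 732.9 FPKM in 6 month taste cells, which placed it at rank 97 and rank 144 of the 23361 genes. The 2 month value was 1.76 times the 6 month value, a log2 change of -0.82. Ivl encodes involucrin, a glutamine-rich scaffold protein laid down early in envelope assembly. Its log2 change was -0.59, the one nearest to 0 among the 6 genes, from 32.9 to 21.5 FPKM, and the 2 month value was 1.53 times the 6 month value. A lower log2 change than that of Ivl was found for 216 of the 12652 expressed genes. Loricrin RNA was 39.3 times as abundant as involucrin RNA per length at 2 months and 34.02 times at 6 months.

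Flg2 and Tchhl1 had very low values at both ages. Flg2, which encodes a filaggrin-like protein of the epidermis, was at 0.0226 FPKM in 2 month and 0.00440 FPKM in 6 month taste cells. Tchhl1 was at 0.0385 and 0.0265 FPKM. No fold is given for these genes, since both values are far below 1 FPKM. The 6 genes with an S100 head thus ranged from under 0.1 FPKM for Flg2 and Tchhl1 to 291.2 FPKM for Rptn at 2 months, whereas Lor alone made up 76.4% of the summed FPKM of the 8 genes at 2 months and 79.8% at 6 months. The share of Rptn was 17.2% and 15.8%, and that of Crnn was 2.62% and 0.768%. The order by level was Lor, Rptn, Crnn, Ivl, Tchh, Hrnr, Tchhl1 and Flg2 at 2 months. With 1 value per age it cannot be said which neighbours in this order differ beyond their spread.

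All 9 genes lie on chromosome 3 of GRCm38, the build to which the reads were mapped. By RefSeq annotation Lor is at chr3:92080271-92083142 and Ivl at chr3:92570899-92573790, both on the minus strand and each with 2 exons in the GENCODE model used here. Further along the chromosome, the S100 fused-type genes follow each other on the plus strand within 327.2 kb. Crnn is at chr3:93144789-93149818, Flg2 at chr3:93197273-93221377, Flg at chr3:93273546-93293689, Hrnr at chr3:93319749-93333572, Rptn at chr3:93393699-93399442, Tchh at chr3:93442330-93449077 and Tchhl1 at chr3:93468754-93471980. The genes with very low values, Flg2 and Tchhl1, are not next to each other along this row. Flg2 is between Crnn and Flg, whose level was not analysed here, and Tchhl1 is at the far end next to Tchh.

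Between the start of Lor and the end of Tchhl1, 41 other genes had a row in the table and 33 of them were expressed. Of these 33 genes, 24 (72.7%) were at least 2-fold lower at 6 months and 1, Sprr2k, was at least 2-fold higher, with a median log2 change of -2.15. Of the 18 expressed Lce genes, 16 were at least 2-fold lower, and the median log2 change was -4.86. The lowest was -5.34, for Lce1b, the highest -0.53, for Lce3e, and Lce3a had the highest level with 661.6 and 250.5 FPKM. Of the 11 expressed Sprr genes other than the pseudogene Sprr2j-ps, which was at 2.90 and 3.03 FPKM, 6 were at least 2-fold lower, or 5 with same-sum or upper quartile scaling, where Sprr2h falls short. Their median was -1.01, with -1.57 at a filter of 5 FPKM and -0.34 without a filter, and values ranged from -3.83 for Sprr2b to 1.83 for Sprr2k. Sprr1a had the highest level of them with 3553.7 and 3104.7 FPKM. Lce and Sprr genes are sets of similar copies between which reads can be split, so their single values are uncertain. The 6 genes described here had a median of -1.07 and a lowest value of -2.49, for Crnn. The S100a genes, which encode small S100 proteins without a repeat region and were taken by symbol, had 0 of 13 at least 2-fold lower and a median of -0.14. Their log2 changes ranged from -0.45 for S100a7a to 0.14 for S100a16. Among them S100a11 had the highest level, with 2876.2 FPKM in 2 month and 2608.7 FPKM in 6 month taste cells. Whether the described genes differ from these families was not tested.

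**Figure D2:**
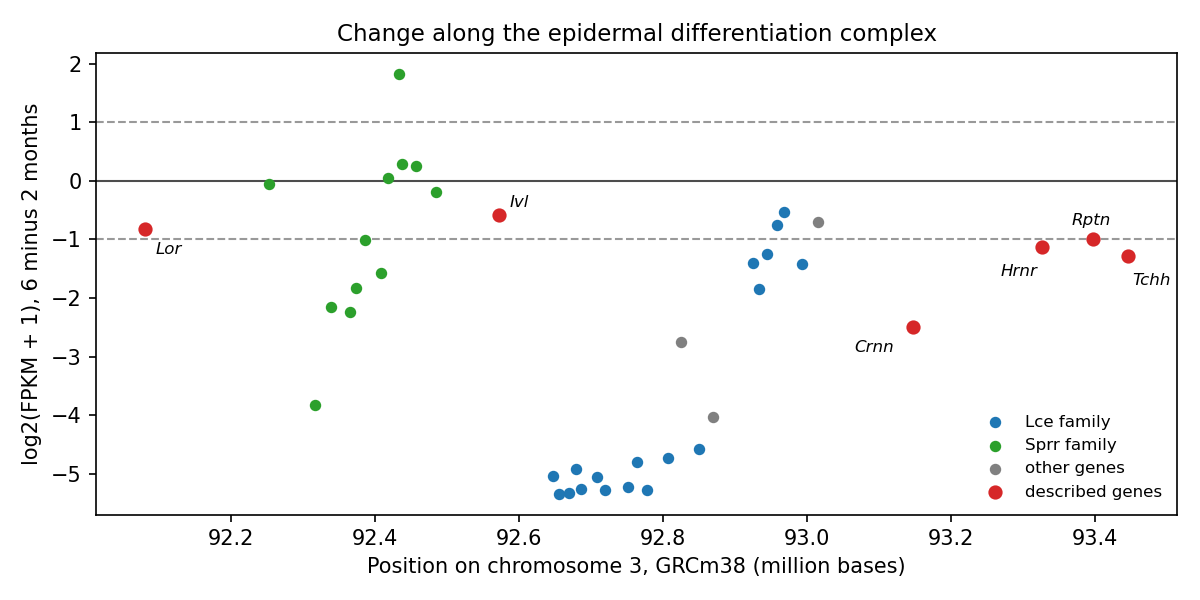
Difference in log2(FPKM + 1), 6 minus 2 months, of each expressed gene against its position on chromosome 3 (GRCm38), with dashed lines at a 2-fold difference. Lor and Ivl lie between 0 and the lower line, Rptn is on it, Hrnr and Tchh are just below it, Crnn is at -2.49, and the Lce1 genes form the lowest group near -5.

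The repeats of the fused-type genes bear on how well they can be measured. In the GENCODE transcripts, 69.1% of the 50-base stretches of Hrnr and 26.3% of those of Flg2 occur more than once within the same transcript. For Flg this share was 79.2%. It was 10.1% for Tchh, 5.49% for Rptn, 0.374% for Ivl, and 0 for Crnn, Lor and Tchhl1. Stretches of 50 bases shared with a transcript of another gene were found for Ivl alone, at 0.694%. Reads from the repeats of Hrnr fit several places in the gene, and how the authors' counting treated them was not tested.

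Genes whose products act on these proteins were read from a list of 18. They include the transglutaminases that crosslink them, the peptidylarginine deiminases that citrullinate filaggrin and trichohyalin, and the proteases that cut profilaggrin or shed the finished cells. Of the list, 15 genes were expressed, of which 11 (73.3%) had a lower and 4 a higher value at 6 months, where 53.7% of all expressed genes were lower, and the median was -0.11 for the log2 change. With same-sum scaling 8 (53.3%) were lower, where 29.2% of all expressed genes were, and the median was -0.017. The genes at least 2-fold lower were 2 of the 15, Klk7 and Asprv1, and with same-sum scaling Asprv1 was short of this at -0.96. Klk7 encodes a kallikrein protease of corneocyte shedding and was at 39.1 and 6.20 FPKM. Asprv1 encodes the aspartic protease that cuts the linker of profilaggrin and was at 752.9 and 360.7 FPKM. Tgm3, a transglutaminase that acts on trichohyalin and loricrin and the most abundant gene of the list, was at 827.6 FPKM in 2 month and 859.8 FPKM in 6 month taste cells. Tgm1, the membrane-bound transglutaminase of the envelope, was at 224.2 and 219.7 FPKM. Padi3, the deiminase of trichohyalin, was at 0.0623 and 0.115 FPKM, and Padi1 was at 14.6 and 12.9 FPKM. Capn1 had the highest log2 change among the 15 expressed genes, 0.12. The transglutaminase genes Tgm1, Tgm3 and Tgm5 had log2 changes between -0.07 and 0.05, or between 0.028 and 0.15 with same-sum scaling.

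Other proteins of the envelope and of suprabasal keratinocytes showed a wide range. Of 12 expressed genes, 8 (66.7%) had a lower and 4 a higher value at 6 months, where 53.7% of all expressed genes were lower. Of the 12, 2 were at least 2-fold lower, and the median log2 change was -0.19. Kprp, which encodes a proline-rich keratinocyte protein and lies within the complex, was at 50.2 and 6.60 FPKM, a log2 change of -2.75. Krtdap, a secreted protein of differentiating keratinocytes, had the highest level with 4893.8 and 4403.5 FPKM, and Dsc1, a desmosomal cadherin, had the highest log2 change with 0.33.

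Keratins mark the layers and papillae of the keratinized epithelium. Among 15 keratins of suprabasal epidermis, oral epithelium and lingual papillae, Krt13 was listed at 0 in both ages, Krt4 at 7333.7 FPKM at 2 months and at 0 at 6 months, and Krt6a at 0 at 2 months and at 3391.4 FPKM at 6 months. A value of 0 can be a failed estimate in such a table, and no fold is given for these genes. Of the 10 other expressed keratins, 9 had a lower value at 6 months, where 53.7% of all expressed genes did, 2 (Krt10 and Krt76) were at least 2-fold lower, and the median log2 change was -0.36. With same-sum scaling Krt10 was short of 2-fold at -0.98. The summed level of the keratins with a value above 0 in both ages was 11687.5 FPKM in 2 month and 9578.6 FPKM in 6 month taste cells, and the most abundant was Krt17 with 8822.5 and 7465.1 FPKM. Krt10, the main keratin of keratinizing suprabasal cells, was at 149.7 and 70.5 FPKM, and its partner Krt1 at 40.7 and 27.2 FPKM. Krt76, a keratin of the oral suprabasal layers, was at 351.6 and 82.4 FPKM. Krt84 and Krt36, which belong to the hard keratins of the filiform papillae, were at 32.0 and 25.4 FPKM at 2 months and at 30.5 and 27.4 FPKM at 6 months, with log2 changes of -0.07 and 0.10, and with same-sum scaling Krt84 was higher at 6 months, at 0.024. Keratins of the inner root sheath, the other known site of trichohyalin, were all under 0.1 FPKM at both ages, and Krt72 was listed at 0 in both. The part of a different amount of keratinized epithelium in the pools was not tested.

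Markers of the basal layer had a median of 0.00 for the log2 change of 7 genes, 0 of them at least 2-fold lower, and a summed level of 4705.4 and 4689.4 FPKM. Krt5, the most abundant of them, was at 2179.8 and 1961.7 FPKM, and Krt14 at 1286.9 and 1533.0 FPKM. The log2 changes of the basal markers ranged from -0.17 for Trp63 to 0.25 for Itgb4. Of 14 taste cell markers, 13 were expressed, 0 were at least 2-fold lower or higher, and the median was -0.07, or 0.027 with same-sum scaling. Their log2 changes ranged from -0.43 for Krt18 to 0.47 for the taste receptor gene Tas1r3. Krt8, the keratin of differentiated taste cells and the most abundant of these markers, was at 234.3 and 196.7 FPKM, and the taste G protein gene Gnat3 at 84.7 and 79.9 FPKM. The labelled cell type is thus present by its markers, and Lor was listed above each of them in both ages. The 8 markers of skeletal muscle summed to 13.0 and 26.0 FPKM, the 6 of fibroblasts to 43.6 and 28.7 FPKM, the 7 of lingual glands to 440.4 and 306.8 FPKM, and the 6 of leukocytes to 416.9 and 383.9 FPKM. Of the muscle markers 6 were expressed, all with a higher value at 6 months. Tnnc2, a troponin of fast muscle, had the highest log2 change with 1.07, at 2.14 and 5.57 FPKM. Mylpf had the lowest change with 0.39, at 3.76 and 5.25 FPKM. The highest level of these markers was that of Mylpf at 2 months and that of Tnnc2 at 6 months. Most of the fibroblast sum is Dcn, with 42.0 and 27.3 FPKM, while the collagen genes Col1a1, Col1a2 and Col3a1 were each below 1 FPKM at both ages. Most of the gland and leukocyte sums is Lyz2, which is in both lists, with 293.3 and 253.7 FPKM. Of the gland markers 5 were expressed, all with a lower value at 6 months and a median log2 change of -0.58, and 2 were at least 2-fold lower. These were Lipf, at 83.7 and 14.7 FPKM, and Bpifb1, at 28.6 and 10.6 FPKM, and the mucin gene Muc5b had the highest log2 change with -0.14. Of the leukocyte markers 5 were expressed, 1 with a lower and 4 with a higher value at 6 months, the highest log2 change being 0.29 for Cd52. Of the fibroblast markers 2 were expressed, Dcn and Pdgfra, both with a lower value, or 1 of them with same-sum scaling. Their log2 changes were -0.60 and -0.034. The part of these other cells in the lower values of the described genes was not tested.

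Regulators known to act on late keratinocyte genes, most of them transcription factors, were read from a list of 21. Of the 20 expressed ones, 8 (40.0%) had a lower and 12 a higher value at 6 months, where 53.7% of all expressed genes were lower, and with same-sum scaling 6 were lower, where 29.2% of all expressed genes were. Of the 20, 0 were at least 2-fold lower, against 1.04% of all expressed genes, and the median was 0.03 for the log2 change. Ovol1 had the lowest log2 change with -0.46, at 81.7 and 59.2 FPKM, the receptor gene Notch1 the highest with 0.43, and Hopx, which encodes a homeodomain protein that does not bind DNA, the highest level with 423.7 and 368.7 FPKM. The AP1 subunits, which bind the involucrin and loricrin promoters in keratinocytes, are at the centre of the study. Fos was at 139.7 and 37.5 FPKM, Fosb at 13.0 and 4.14 FPKM and Jun at 90.3 and 40.1 FPKM. These are the 3 of 6 expressed subunits that were at least 2-fold lower at 6 months. Junb was at 181.5 and 124.7 FPKM, Jund at 96.6 and 92.0 FPKM and Fosl2 at 42.2 and 42.7 FPKM. Fosl1 was below 1 FPKM at both ages. In taste cells of mice with a conditional Fos knockout, the paper reports that Ivl RNA was not reduced. Fos RNA was lower in those cells but not absent. Of the described genes, the paper names Ivl alone in this experiment. Whether AP1 subunits act on the described genes was not tested here.

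The promoters of all 9 genes were found by symbol among the RefSeq promoter sequences of GRCm38.p6. The AP1 binding sequence is TGACTCA, which reads TGAGTCA on the other strand. The wider letters TGANTCA, which take any base in the middle and so also cover TGAATCA and its reverse complement TGATTCA, were present in the 250 bases before the start of 7 of the 9 genes, once in each. They were present in 6.75% of all 32851 promoters, in 4.85% of the 11789 promoters of expressed genes, and in 10 of 37 promoters (27.0%) of the other genes of the complex. Of the 7 matches, 2 were the AP1 sequence itself, as TGAGTCA in Lor, 48 bases before the start, and as TGACTCA in Ivl, 116 bases before the start. This sequence was present in 4.46% of all promoters, in 3.51% of those of expressed genes and in 9 of 37 (24.3%) of the other genes of the complex. The 5 others differ from it in the middle base, with TGAATCA in Crnn, Flg, Flg2 and Tchhl1 and TGATTCA in Rptn. All 5 are in genes of the S100 fused-type family, so these matches may not be independent of each other. On either strand, TGAATCA was present in 2.43% of all promoters, in 1.40% of those of expressed genes and in 1 of 37 (2.70%) of the other genes of the complex. Hrnr and Tchh had no match in this window. The GENCODE model of Tchh has 2 exons, whereas those of the other S100 fused-type genes have 3 or more. Whether the annotated start of Tchh is its true start was not tested, so its lack of a match may not describe its promoter. The letters TATAAA, the TATA box, were searched on both strands and present in 6 of the 9 promoters, in 12.4% of all promoters, in 6.62% of those of expressed genes and in 16 of 37 promoters (43.2%) of the other genes of the complex. They began 27 to 31 bases before the start in Lor, Ivl, Crnn, Rptn and Hrnr and 53 bases before it in Flg. A match is a run of letters and was not tested as a binding site.

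The 150 bases before the start are shown for the 6 expressed genes, so that the matches can be compared. They are chr3:92083143-92083292 and chr3:92573736-92573885 on the minus strand and chr3:93144639-93144788, chr3:93393549-93393698, chr3:93319599-93319748 and chr3:93442180-93442329 on the plus strand, each written 5′ to 3′ on the strand of the gene. The start of Ivl in the promoter sequences lies inside the RefSeq gene interval given above, so these bases overlap that interval. Capitals mark TGANTCA and TATAAA.
Lor: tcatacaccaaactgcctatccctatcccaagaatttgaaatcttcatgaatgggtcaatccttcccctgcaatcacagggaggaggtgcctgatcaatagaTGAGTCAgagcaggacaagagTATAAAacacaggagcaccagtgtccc
Ivl: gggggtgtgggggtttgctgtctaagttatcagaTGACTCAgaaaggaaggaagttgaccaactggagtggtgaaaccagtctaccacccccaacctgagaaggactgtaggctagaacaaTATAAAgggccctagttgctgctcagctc
Crnn: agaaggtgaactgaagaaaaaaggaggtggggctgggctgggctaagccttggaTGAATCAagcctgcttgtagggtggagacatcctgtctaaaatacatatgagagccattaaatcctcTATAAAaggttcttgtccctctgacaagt
Rptn: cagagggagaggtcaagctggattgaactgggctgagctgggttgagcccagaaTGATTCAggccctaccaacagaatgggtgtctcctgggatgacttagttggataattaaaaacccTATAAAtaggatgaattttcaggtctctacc
Hrnr: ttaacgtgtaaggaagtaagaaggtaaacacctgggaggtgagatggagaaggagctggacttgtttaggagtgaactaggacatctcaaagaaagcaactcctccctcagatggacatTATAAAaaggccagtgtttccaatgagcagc
Tchh: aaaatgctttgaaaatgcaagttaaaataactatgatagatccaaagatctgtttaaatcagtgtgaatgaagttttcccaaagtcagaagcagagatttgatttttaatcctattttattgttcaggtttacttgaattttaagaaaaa

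With 2 ages, likeness between genes can be measured over 2 values only. By the distance between log2(FPKM + 1) at both ages, the genes nearest to Crnn among the 12652 were Kprp and Klk7, at distances of 0.20 and 0.24, both also genes of late keratinocytes. Nearest to Tchh were Upk3a (0.21) and the kallikrein gene Klk9 (0.22), and nearest to Ivl were Alox15 (0.04) and 2310007B03Rik (0.07). Nearest to Hrnr were C330005M16Rik (0.08) and A030009H04Rik (0.23). For the abundant genes the nearest were mostly short RNAs, with Scarna17 (0.30) and Mir5113 (0.34) for Rptn and Snord100 (0.29) and Fth1 (0.36) for Lor.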

How the data were processed

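Reads were aligned by the authors with TopHat2 2.0.7 to GRCm38/mm10 with RefSeq models from iGenomes, and Cufflinks 2.1.1 and Cuffdiff gave the values (paper methods and submitters' processing notes). The authors deposited 1 FPKM value per gene and age, over 3 pools each. The 6 month column was taken from the letter B and the 2 month column from S, as in the sample titles. The Cuffdiff normalization is not given in the sources used here. The table also holds the authors' p-values for the 2 ages, which were not used.

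The log2 change used a pseudocount of 1, the filter was an average of 1 FPKM, and a 2-fold difference was 1 on that scale. No test or SD was computed, since values of single pools were not used here. The counting was tested on simulated data with changes set well past the 2-fold limit, in genes of at least 5 FPKM at 2 months. This checks the counting only and does not bear on genes near that limit, such as Rptn and Hrnr. The members and gene lists were chosen with earlier results of these data known. Genes named are the members, the highest level and the lowest and highest change of each list, the AP1 subunits, the neighbours of the members on the chromosome and the 2 nearest genes of each expressed member. Asprv1, Padi1, Padi3, Tgm1, Tgm5, Krt1, Krt10, Krt13, Krt14, Krt36, Krt72, Krt76, Krt84, Gnat3, Bpifb1, Col1a1, Col1a2, Col3a1, Sprr2h, Sprr2j-ps, Lelp1, 2310050C09Rik and Crct1 were named after their values were seen. Positions and promoters (250 bases before to 50 after the start) are from RefSeq GRCm38.p6, and transcripts from GENCODE M21 (the longest protein-coding model, for Flg the longest of any kind). The length of 50 bases was chosen because the read length is not given in the sources used here. Protein sequences were not analysed here. Alternatives were a pseudocount of 0.1, no filter, a filter of 5 FPKM, a 1.5-fold limit, 2 scalings and leaving out Flg, Flg2 and Hrnr, and, added after seeing the data, leaving out genes listed at 0 in 1 age. Python 3.11.15, numpy 2.4.6, pandas 2.3.3 and matplotlib 3.10.9 were used.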

Additional observations from a re-analysis of the deposited data

How the results depend on the processing

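No paired analysis was possible because single pools have no values here, and for the same reason no pool could be left out. With the same upper quartile in both ages (6 month values multiplied by 1.03) and the same sum without short non-coding genes (by 1.07 relative to 2 month values), all 6 genes had a lower value at 6 months. A pseudocount of 0.1 changes sizes but cannot change a direction. Over these 3 settings Crnn ranged from -2.63 to -2.40, Tchh from -1.36 to -1.19, Hrnr from -1.37 to -1.05, Rptn from -1.004 to -0.90, Lor from -0.82 to -0.72 and Ivl from -0.61 to -0.49. Their median ranged from -1.18 to -0.91 when the filter and the set without Flg, Flg2 and Hrnr were included. The number at least 2-fold lower was 3, with 2 to 4 under these settings, and 6 were at least 1.5-fold lower. Ivl passed the 1.5-fold limit narrowly, at -0.587. It was short of that limit with the same upper quartile, at -0.546, and with the same sum, at -0.493. Over all genes, 217 were at least 1.5-fold lower and 133 higher, against 131 and 71 at 2-fold. Without genes listed at 0 in 1 age, which was added after seeing the data, 83 were at least 2-fold lower and 40 higher, and also without short non-coding genes 68 and 10. The median of the taste cell markers changed sign, from -0.07 to 0.027, with the same sum without short non-coding genes, which raises every 6 month value relative to 2 months and lowers the share of expressed genes with a lower value from 53.7% to 29.2%. The Lce median was -4.86, and -5.49 with a pseudocount of 0.1, and the Sprr median was -1.01, and -0.34 without a filter. Of the 15 expressed genes whose products act on the described proteins, only Klk7, a protease of corneocyte shedding, was at least 2-fold lower with the same sum. That scaling also took Asprv1 and Krt10 below 2-fold, and both scalings took Sprr2h. A difference between ages cannot be set against the spread of pools in any of these settings.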

Other observations

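The other genes between Lor and Tchhl1 that belong to neither the Lce nor the Sprr family were few. Crct1, a cysteine-rich gene of the complex, was at 569.5 FPKM in 2 month and 349.3 FPKM in 6 month taste cells, and its log2 change of -0.70 lay between those of Lor and Ivl. The gene 2310050C09Rik, which lies between the Lce1 and Lce3 genes, was at 19.9 and 0.269 FPKM. Prr9, Lelp1 and Smcp were below 1 FPKM at both ages, and Tdpoz8 was listed at 0 in both, as was the Sprr gene nearest to Ivl, Sprr4.

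Among all expressed genes, 79 were listed at 0 in 1 of the 2 ages. Of these, 76 encode short non-coding RNAs, and 2 of the other 3 are the keratin genes Krt4 and Krt6a. Krt13 was listed at 0 in both ages. None of the 8 genes described here was listed at 0 in either age.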
